A study of Bos taurus with 8 samples.

Results

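The mitochondrial ribosomal proteins are the nuclear-encoded proteins of the ribosome inside mitochondria, and their transcripts were followed in bovine granulosa cells given follicle-stimulating hormone (FSH). Members were all genes of the array annotation whose symbol is MRPL or MRPS, a number and at most 1 letter from A to C. This gave 75 genes, 46 of the large subunit (MRPL) and 29 of the small subunit (MRPS), measured by 128 of the 43794 gene probes. The rule itself uses symbols and no measured value, but it was chosen with earlier results of these data known. The symbols MRPL40, MRPL57 and MRPL58 of the cattle RefSeq table were not matched by the rule, and MRPL58 is treated below under the proteins that the annotation lists with other symbols.

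The study compared untreated granulosa cells, the hormone-producing cells that line the ovarian follicle, with cells that received FSH at 1 ng/ml for the last 4 h of a 48 h culture. Both groups were primary Bos taurus cells from follicles of 2 to 6 mm of slaughterhouse ovaries, with an n of 4 per biological replicate whose unit is not stated. The age, breed and cycle stage of the animals are not given in the sources used here. Each of 8 two-colour arrays compared amplified RNA from both groups, and the arrays form 4 dye-swap pairs numbered as replicates 1 to 4 after the labels. FSH was in the Cy5 channel on 4 arrays and in the Cy3 channel on the other 4.

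The mitoribosome translates only the messages encoded by the mitochondrial genome, which are core subunits of the respiratory chain and of ATP synthase. All of its proteins are made in the cytosol and imported, so their transcripts are read out by an array of nuclear genes. Some descend from bacterial ribosomal proteins and others are found only in mitochondrial ribosomes. In granulosa cells, mitochondria are also where the first step of steroid synthesis takes place, the side-chain cleavage of cholesterol by CYP11A1.

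Values are log2 ratios of FSH over control: 0 is no difference, and a positive value is a higher intensity with FSH. A ratio per replicate is the mean of the 2 arrays of opposite dye, and errors are standard errors of limma over the 4 replicates. Each gene is given by its brightest tested probe unless stated otherwise. Levels are log2 intensities of a channel after scaling between arrays, and they are compared only within a probe. The labels do not tie the replicate number to an animal or a culture, so each p-value rests on the spread between these samples, which may be technical.

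Of 43794 gene probes, 36531 were tested, among them the brightest probes of 13592 named genes. Between 71.4% and 84.2% of gene probes per channel lay above background, taken as the 95th percentile of the negative controls. All 12 granulosa markers, among them FSHR, CYP19A1, AMH and INHA, were tested, and 11 of them were above background in all 16 channels. The theca marker CYP17A1 was above background in 15 channels and LHCGR in 4 channels. The oocyte markers GDF9, ZP4 and NLRP5 and the endothelial marker PECAM1 did not pass the filter. Many other markers of such cells were above background in all 16 channels, among them STAR, DCN, LUM, COL3A1 and ACTA2. This held for 3 of 5 theca, 4 of 6 endothelial, 2 of 5 smooth muscle and 5 of 6 fibroblast and stroma markers. The counts were 3 of 6 for immune cells, 2 of 4 for erythrocytes and 2 of 7 for oocytes. Median ratios of the marker lists of other cell types lay between -0.06 for endothelium and smooth muscle and 0.10 for theca. Single markers lay further out, among them KDR at 0.81, STAR at 0.49, DCN at 0.43, LUM at 0.37 and ACTA2 at -0.38. The part of such cells in the results was not tested, and in these bulk samples fewer cells of a type and less RNA per cell cannot be told apart.

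Replicate 3 stood apart. NR4A1, an immediate-early gene of FSH and cAMP signalling, had ratios of 3.22, 4.37, 0.13 and 4.10 across replicates 1 to 4. In the library labelled control its level was 14.88 in replicate 3 and between 10.91 and 11.23 in the others, against 14.46 to 15.28 with FSH. Of the 42 members named by the rule given under the processing, those whose mean moved by over 1.5 times without replicate 3 are therefore given with and without it. Other members, which also moved in some cases, are not all given in this way.

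All 75 members had at least 1 tested probe, and 126 of their 128 probes were tested. For 74 of the 75 genes the brightest probe was above background in all 16 channels. The exception was MRPS9, a small subunit protein with a bacterial counterpart, with 15 of 16 channels. The same held for 10596 of all 13592 named genes, and for 4905 of the 4906 with a mean level over 9. The mitoribosomal transcripts were thus above background in both groups, but some were dim. Mean levels were 7.15 for MRPS9, 7.16 for MRPS12, 7.36 for MRPS35, 7.61 for MRPL2 and 7.65 for MRPL36.

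No mitoribosomal transcript differed between FSH and control past the threshold, and the measured differences were small. With limma over the 4 replicates, 0 of 126 member probes reached an adjusted p under 0.05, against 0 of 36531 tested probes (0%). The lowest adjusted p of a member was 0.258, and 17 member probes (13.5%) had an unadjusted p under 0.05, against 12.2% of all tested probes. The largest mean ratios were -0.47 for MRPL10 and 0.33 for MRPL45, so no member reached a 1.5-fold mean difference, which 3.99% of all named genes did. Among named genes with a mean level over 9 the share was 8.11%, and 63 of the members lie in that range. The median size of the ratio, whatever its sign, was 0.133 over the 63 bright members and 0.165 over the bright named genes. The 95% confidence interval lay within 1.5-fold in either direction for 61 of the 75 members and within 2-fold for all 75. The intervals cover the spread between the replicates, each for a single gene.

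**Figure D1:**
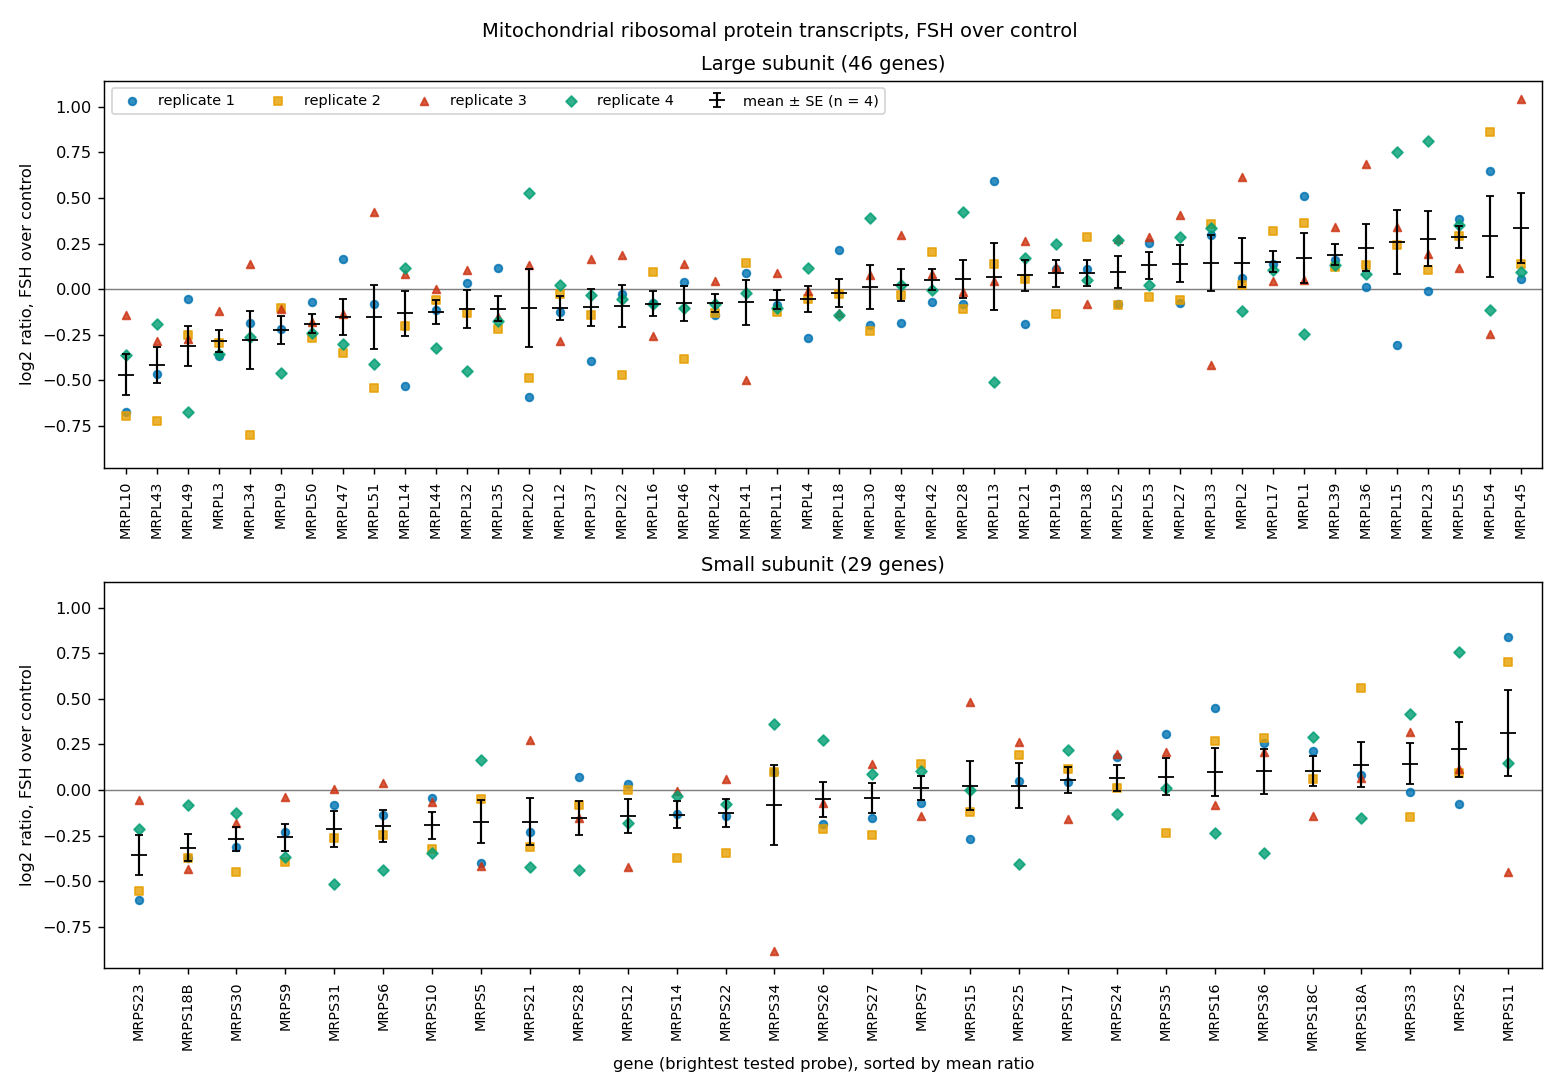
Log2 ratio of FSH over control (vertical axis) for each mitochondrial ribosomal protein gene, large subunit above and small subunit below, sorted by mean. Coloured symbols are the 4 replicates and black bars the mean with its SE. Means run from -0.47 (MRPL10) to 0.33 (MRPL45), and single replicates reach 1.04 (MRPL45, replicate 3) and -0.88 (MRPS34, replicate 3).

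The median of the members lay slightly below 0, and their share above 0 was near that of all named genes. Their median ratio was -0.05, with 35 of 75 above 0 (46.7%), and the median over all named genes was -0.00463, with 48.1% above 0. In replicates 1 to 4 the median of the members was -0.07, -0.08, 0.04 and -0.05, so it was below 0 in 3 replicates and above 0 in replicate 3. Without replicates 1, 2, 3 and 4 in turn, the median of the members was -0.00462, -0.000734, -0.04 and -0.06. With all probes of a gene averaged it was -0.03. The 4 replicate medians of the members had a mean of -0.04 and an SD of 0.06.

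At an unadjusted p under 0.05, 2 members were higher (2.67%) and 11 lower (14.7%). Over all named genes the shares were 7.92% higher and 8.08% lower, and over bright named genes 12.8% and 13.4%. The same sign in every replicate was found upward for 5 members (6.67%) and downward for 13 (17.3%). The background was 10.7% upward and 11.6% downward over all named genes, and 13.1% and 14.5% over bright ones. Among the 63 bright members, 3.17% were higher and 15.9% lower at that p, and 4 were above and 12 below 0 in every replicate. The difference in shares was not tested.

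In a fit of the single arrays, with a random block for the replicate number and a term for dye, 5 member probes passed an adjusted p of 0.05. Those were 2 higher probes, both of MRPL55, and 1 lower probe each of MRPL10, MRPL43 and MRPS18B. Over all tested probes, 2.06% passed upward and 1.45% downward, or 3.51% together, against 3.97% of the member probes. Arrays of the same RNA enter this fit separately, so its calls are weaker evidence than a test over 4 replicates. Without the 3rd pair, 10 member probes passed (7.94%), against 7.22% of all tested probes. In both cases the members' share was near that of all tested probes, many of which are dimmer. Of the 4906 bright named genes, 272 higher and 226 lower ones passed the blocked fit, against 1 and 3 of the 63 bright members. Without the 3rd pair the counts were 513 and 512 against 3 and 3, by the sign of the 4-replicate mean. Over both directions together, the bright members thus had the smaller share in each fit, a difference that was not tested. MRPS18B was not among the probes that passed without the 3rd pair.

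The stalk of the large subunit is the flexible arm that recruits translation factors, and MRPL10 joins it to the body of the ribosome. MRPL10 had the lowest mean ratio of all members. Its control level was 11.95, 11.92, 11.38 and 11.81 in replicates 1 to 4, and its FSH level was 11.28, 11.23, 11.24 and 11.45. FSH was lower in every replicate, and the groups overlapped only because the replicate 3 control lay below the replicate 4 FSH value. The ratios were -0.68, -0.70, -0.14 and -0.36, with a mean of -0.47 ± 0.11 (SE, n = 4) and a 95% interval from -0.76 to -0.18. The adjusted p was 0.285 over the replicates and 0.0295 in the blocked fit.

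The other stalk proteins lay closer to 0. MRPL12, the stalk protein that contacts the translation factors and also binds the mitochondrial RNA polymerase, was at -0.12, -0.03, -0.29 and 0.02, a mean of -0.10 ± 0.07. MRPL11, at the base of the stalk, had a mean of -0.06 ± 0.05 and was positive only in replicate 3. Whether MRPL10 differs from them was not tested.

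Proteins of the core and of the peptide exit tunnel had ratios on both sides of 0. MRPL3, a core protein with a bacterial counterpart, had ratios of -0.37, -0.30, -0.12 and -0.35, and all 4 FSH levels (9.82 to 10.12) lay below all 4 control levels (10.17 to 10.42). Its mean was -0.28 ± 0.06, its adjusted p of 0.258 was the lowest of the members, and in the blocked fit it was 0.148. MRPL2, MRPL4 and MRPL16, also of the core, had means of 0.15, -0.05 and -0.08, each with replicates on both sides of 0.

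MRPL22, MRPL23 and MRPL24 line the exit tunnel or its rim. MRPL22 and MRPL24 had means of -0.09 ± 0.12 and -0.08 ± 0.05. MRPL23 was at -0.01, 0.10, 0.20 and 0.81, and its second probe at -0.01, 0.12, 0.14 and 0.81. Both probes thus show the same single high replicate: the mean of 0.28 ± 0.15 was 0.10 without replicate 4.

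MRPL45 sits at the tunnel exit and contacts the inner membrane, where the products are inserted. It had the highest mean of all members, and that mean came from 1 replicate: the ratios were 0.06, 0.14, 1.04 and 0.09. Without replicate 3 the mean of 0.33 ± 0.19 was 0.10. A second, dimmer probe was high in the same replicate, at 0.74, and also in replicate 4, at 0.53, while another probe had ratios between -0.06 and 0.10. MRPL39 and MRPL44, other proteins specific to the mitochondrial ribosome, had means of 0.19 ± 0.06 and -0.12 ± 0.07, with all 4 replicates of MRPL39 above 0 and all 4 of MRPL44 below. MRPL39 has 4 probes, and the other 3 had means of 0.18, 0.06 and -0.00378.

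MRPL43 and MRPL55 had ratios of opposite sign, and in each the levels of the groups did not overlap. Neither is on the list of members with a bacterial counterpart used here. MRPL43 had control levels of 10.38, 10.53, 10.24 and 10.01 and FSH levels of 9.92, 9.81, 9.96 and 9.82. Every FSH value lay below every control value, although the replicate 4 control was close. The ratios were -0.46, -0.72, -0.28 and -0.19, with a mean of -0.41 ± 0.10, an adjusted p of 0.286 and 0.0405 in the blocked fit.

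MRPL55 had control levels of 12.53, 12.69, 12.85 and 12.62 and FSH levels of 12.92, 12.98, 12.97 and 12.97. The FSH values lay within 0.1 of each other and above all controls, of which that of replicate 3 was highest. The ratios were 0.39, 0.29, 0.12 and 0.35, a mean of 0.29 ± 0.06 or 1.22-fold, with an adjusted p of 0.262 and of 0.0398 in the blocked fit. Other probes of MRPL55 were read as well. Means of 0.35 ± 0.12 and 0.31 ± 0.07 were found for 2 further probes of the gene, and a dim probe was at -0.07 ± 0.10.

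Over the 75 members, all FSH levels lay above all control levels for 1 gene, MRPL55, and below them for 4 genes, MRPL3, MRPL43, MRPL49 and MRPS30. All 5 are bright, which makes 1.59% and 6.35% of the 63 bright members. Over the bright named genes the shares were 1.67% above and 1.92% below. The ratios of MRPL49 were -0.05, -0.25, -0.27 and -0.67. Its second probe was at 0.47, 0.90, -0.78 and -0.56, but that probe also split by dye, at -0.87 with FSH in Cy5 and 0.88 with FSH in Cy3, the widest split of all member probes.

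**Figure D2:**
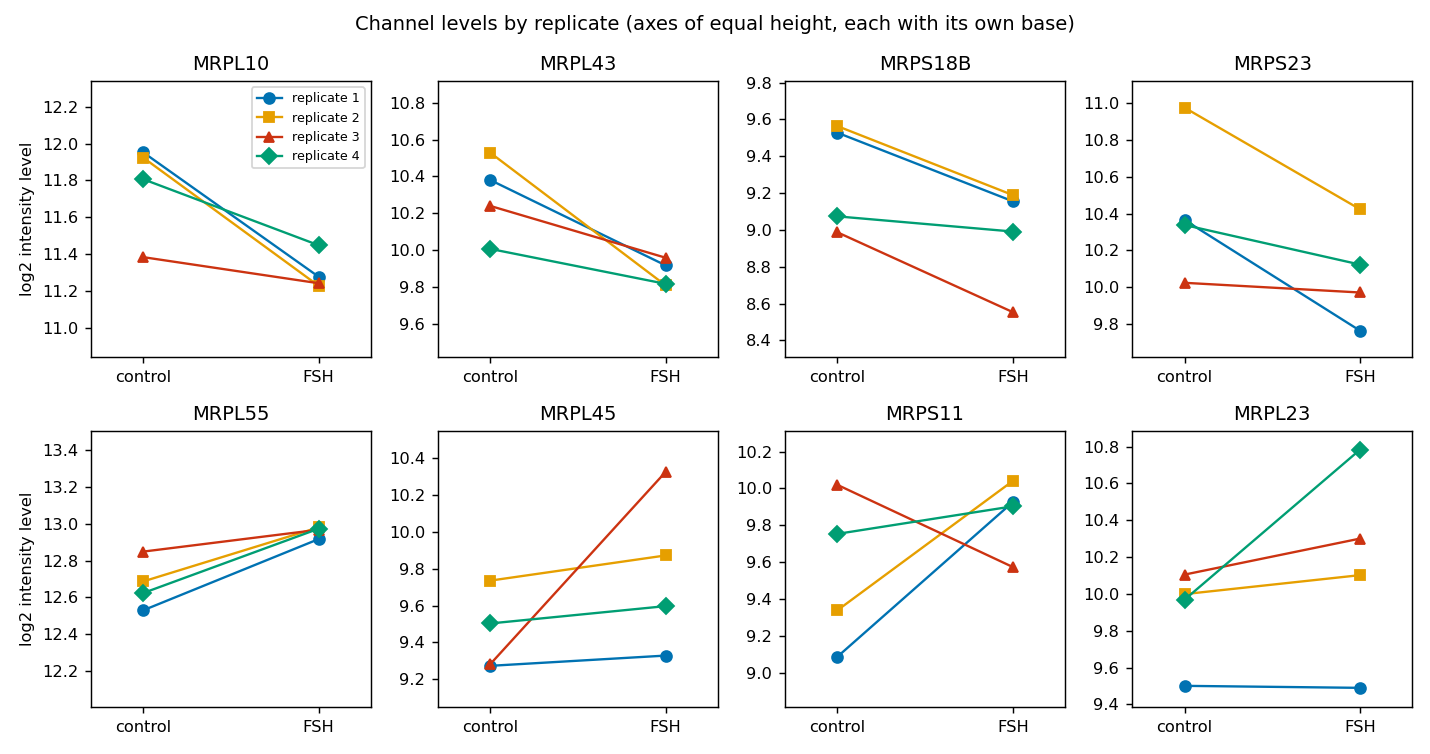
Log2 intensity levels in the control and FSH channels of each replicate (lines) for 8 members, on axes of equal height with different bases. The FSH values of MRPL43 lie below and those of MRPL55 above all control values, while MRPL45 and MRPL23 differ mainly in replicate 3 and replicate 4.

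Other members of the large subunit at the ends of the range differed between replicates. MRPL54, specific to mitochondria, was at 0.65, 0.86, -0.24 and -0.11, and its mean of 0.29 ± 0.22 was 0.10 without replicate 2 and 0.47 without replicate 3. Its second probe did not share the high values of replicates 1 and 2. That probe was at -0.19, -0.08, -0.10 and 0.43, a mean of 0.02 ± 0.12. MRPL15, with a bacterial counterpart, was at -0.31, 0.24, 0.34 and 0.75, and MRPL36, also with a bacterial counterpart, at 0.01, 0.13, 0.69 and 0.08. The mean of MRPL15 was 0.26, and 0.09 without replicate 4, while its other probes had means of 0.06 and 0.05. The mean of MRPL36 was 0.07 without replicate 3. MRPL34 was at -0.19, -0.80, 0.14 and -0.26, with a mean of -0.28 ± 0.16 that became -0.10 without replicate 2. MRPL50 was steadier, below 0 in every replicate at -0.07 to -0.27, with a mean of -0.19 ± 0.05. MRPL37 and MRPL41, specific to mitochondria, had means of -0.10 ± 0.10 and -0.07 ± 0.12 with mixed signs, and MRPL17 and MRPL53 had means of 0.15 ± 0.06 and 0.13 ± 0.08.

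In the small subunit, the paralogs MRPS18A, MRPS18B and MRPS18C, which descend from a single bacterial protein and take different places in the ribosome, had different ratios. MRPS18B had control levels of 9.53, 9.56, 8.99 and 9.07 and FSH levels of 9.16, 9.19, 8.55 and 8.99. Within each replicate FSH was lower, but the groups overlapped, since the control levels of replicates 3 and 4 lay below the FSH levels of replicates 1 and 2. The ratios were -0.37, -0.37, -0.43 and -0.08, with a mean of -0.32 ± 0.07, an adjusted p of 0.277 and 0.0428 in the blocked fit. Without the 3rd pair the blocked fit gave a ratio of -0.28 and an adjusted p of 0.0965, so MRPS18B did not pass there. Replicate 3 had the lowest ratio of the 4, and the blocked fit was not run without any other pair.

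MRPS18A and MRPS18C had positive means, 0.14 ± 0.12 and 0.11 ± 0.08, with 1 negative replicate each. All 3 probes of MRPS18A were above 0 in the mean, and both probes of MRPS18C were positive in replicates 1, 2 and 4 and negative in replicate 3. The difference between the paralogs was not tested.

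MRPS11, a platform protein near the mRNA exit, had the highest mean of the small subunit and the widest interval of all members, from -0.30 to 0.92. Its control levels were 9.09, 9.34, 10.02 and 9.75 and its FSH levels 9.93, 10.04, 9.57 and 9.90. Replicates 1 and 2 were higher with FSH, replicate 4 a little, and replicate 3 lower, with the highest control value of the 4. The ratios were 0.84, 0.70, -0.45 and 0.15, and the mean of 0.31 ± 0.23 was 0.56 without replicate 3. In the blocked fit without the 3rd pair MRPS11 had an adjusted p of 0.0403, against 0.473 with it. Each of its 4 probes had a positive mean, between 0.18 and 0.34, and a negative ratio in replicate 3. The probe with the lowest of these means split by dye, at -0.49 with FSH in Cy5 and 0.85 with FSH in Cy3.

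MRPS23, a small subunit protein specific to mitochondria, had the lowest mean of that subunit. Its ratios were -0.60, -0.55, -0.05 and -0.21, a mean of -0.35 ± 0.11 with an adjusted p of 0.338, and its other probes were at -0.22 and -0.10. The control levels of MRPS23 spread from 10.02 to 10.97, more than any other member's. In the blocked fit the adjusted p was 0.105, and without the 3rd pair it was 0.0392.

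Other small subunit proteins with a bacterial counterpart had means of both signs. MRPS12, which shapes the decoding centre, was at -0.14 ± 0.09, MRPS5 at -0.17 ± 0.12 and MRPS14 at -0.13 ± 0.08. MRPS16 was at 0.45, 0.27, -0.08 and -0.24, a mean of 0.10 ± 0.13. MRPS2 was at -0.08, 0.09, 0.12 and 0.76, and its mean of 0.22 ± 0.15 was 0.04 without replicate 4. MRPS9 and MRPS10, named after their values were seen, were below 0 in every replicate, with means of -0.26 ± 0.07 and -0.19 ± 0.07. MRPS22, MRPS27 and MRPS28, not on the list of members with a bacterial counterpart used here, had means of -0.12 ± 0.08, -0.04 ± 0.08 and -0.15 ± 0.09.

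For 2 of these small subunit genes the probes carry a warning. The brightest probe of MRPS7, a head protein, had a mean of 0.01 ± 0.07, but this is the average of -0.83 with FSH in Cy5 and 0.85 with FSH in Cy3, so the Cy3 channel was brighter in both orientations. Its other probe, at -0.07 and -0.18, did not show this split. A like split, of -0.63 and 0.82, was seen for MRPL38, a gene chosen here after its values were seen. MRPS34, specific to mitochondria, was at 0.10, 0.10, -0.88 and 0.36, and in replicate 3 its second probe was at 0.92, in the opposite direction.

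Replicate 3 also decided much of the mean of further members that lay near 0. Without it MRPL2 was at -0.00998 in place of 0.15, MRPL41 at 0.07 in place of -0.07 and MRPS34 at 0.19 in place of -0.08, so these changed sign. MRPL12, MRPL16, MRPL53, MRPS5, MRPS12 and MRPS36 came closer to 0 without it, at -0.04, -0.02, 0.08, -0.09, -0.05 and 0.07. MRPL11, MRPL22, MRPL24, MRPL37 and MRPS27 lay lower without it, at -0.11, -0.18, -0.12, -0.19 and -0.10. MRPS7, MRPS16 and MRPS18C lay higher, at 0.06, 0.16 and 0.19.

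Across the members, the ratios of the orientations had opposite signs for 28 of 75 genes. With FSH in Cy5 only, 5 member probes passed (3.97%), of MRPL38, MRPL39, MRPS18B and MRPS7, against 5.43% of all tested probes. With FSH in Cy3 only, 2 member probes passed (1.59%), of MRPS11 and MRPS7, against 1.29%. MRPL10 was at -0.43 and -0.51, MRPL43 at -0.39 and -0.43, and MRPL55 at 0.15 and 0.42 with FSH in Cy5 and in Cy3. In the same order, MRPL3 was at -0.09 and -0.48, MRPL49 at -0.51 and -0.12 and MRPS30 at -0.14 and -0.39. MRPS18B was at -0.48 and -0.15 and MRPS23 at -0.14 and -0.57, so these genes kept their sign but differed in size by orientation. Arrays of a single orientation hold the dye effect in full, and the orientation cannot be told apart from the set of scans it belongs to.

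Large and small subunit transcripts differed little in the median. The median of the large subunit was -0.07, -0.06, 0.08 and -0.03 in replicates 1 to 4, and that of the small subunit was -0.07, -0.12, -0.04 and -0.08. The small subunit median was below 0 in every replicate, while that of the large subunit was above 0 in replicate 3. The difference of the medians, large minus small, was -0.00241, 0.06, 0.12 and 0.06. Over the replicate means, the medians were -0.04 for the large and -0.05 for the small subunit, with a difference of 0.01. Taken within each replicate, the difference had a mean of 0.06 and an SD of 0.05, so its size depends on whether medians are taken before or after averaging. No test was run on it.

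By counts, 22 of 46 large subunit genes and 13 of 29 small subunit genes had a mean above 0. A positive ratio in all 4 replicates was found for 5 large subunit genes, which were MRPL17, MRPL36, MRPL39, MRPL45 and MRPL55, and for 0 of the small subunit. A negative ratio in all 4 was found for 7 large (15.2%) and 6 small subunit genes (20.7%), against 11.6% of all named genes, and a positive one for 10.9% of the large subunit against 10.7%. With limma's unadjusted p under 0.05, the large subunit had 2 genes higher (4.35%) and 6 lower of 46, and the small subunit 0 higher and 5 lower (17.2%), against 7.92% and 8.08% of all named genes. The difference between the subunits in these counts was not tested.

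**Figure D3:**
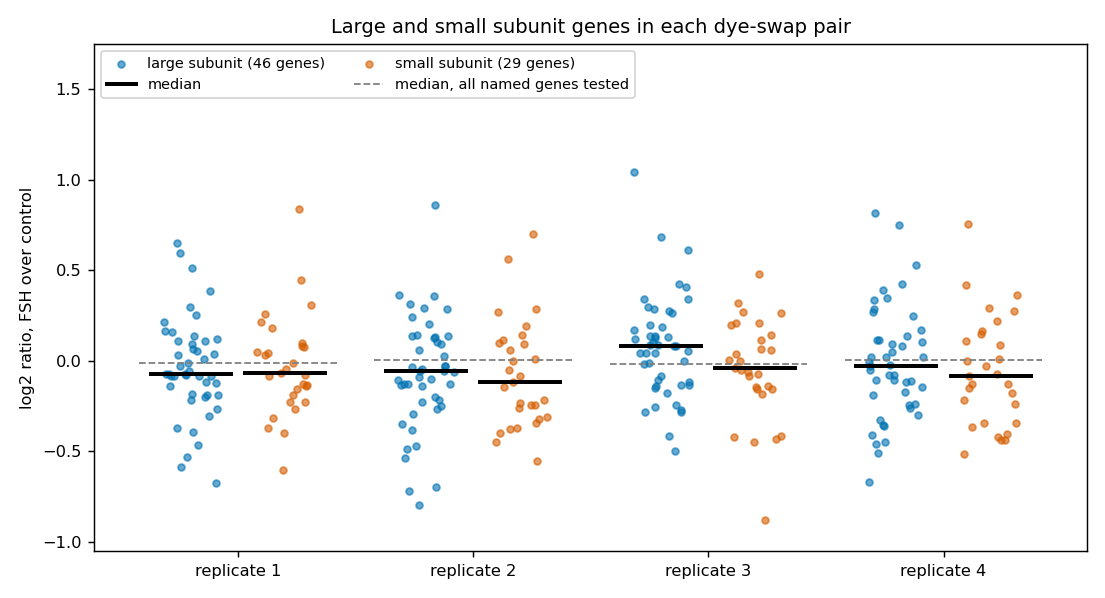
Log2 ratio of FSH over control (vertical axis) of the 46 large and 29 small subunit genes (points) in each replicate, with the median of each subunit as a black line and the median of all named genes tested as a dashed line. The clouds of the subunits overlap in every replicate, and the medians lie between -0.12 and 0.08.

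The symbols do not match the structure of the ribosome everywhere. In the mammalian mitoribosome MRPS18A and MRPS30 are part of the large subunit, and MRPS36 is now assigned to the 2-oxoglutarate dehydrogenase complex. MRPS30 had ratios of -0.31, -0.45, -0.18 and -0.13, a mean of -0.27 ± 0.07, and all its FSH levels lay below its control levels. MRPS36 was at 0.26, 0.29, 0.21 and -0.34. With these genes placed by structure, the medians were -0.04 for 48 large and -0.07 for 26 small subunit genes.

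Medians by origin were close to 0 in every class. A list of symbols set the members counted as having a bacterial counterpart, and all others were taken as specific to mitochondria. The assignment was not checked by sequence, so single genes may be misplaced. Of the large subunit, the 28 listed genes had a median of -0.04 and the 18 others one of -0.02. Of the small subunit by symbol, the 17 listed genes, MRPS18A included, had a median of 0.01. The 12 others, MRPS30 and MRPS36 included, had a median of -0.07. In that last class, 4 of 12 genes were above 0.

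Over the 4 control libraries, that of replicate 3 included, the level of a member spanned a median range of 0.44, from 0.08 for MRPL19 to 0.95 for MRPS23. MRPL19 is named here after its values were seen.

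The profile of the members was shared by replicates 1 and 2 but little by the others. Across the 75 genes, ratios of replicates 1 and 2 correlated at r = 0.69, close to the 0.75 over 4906 bright named genes. Replicates 1 and 4 correlated at -0.03 over the members and at 0.48 over the bright named genes, and replicates 2 and 4 at 0.27 and 0.70. Pairs with replicate 3 lay between -0.06 and 0.11 over the members and between -0.11 and 0.26 over the bright named genes. These are correlations across genes, which are not independent replicates, and the genes of a replicate share its libraries and arrays.

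Different probes of a gene gave like ratios where they were bright. Of 37 members with several tested probes, 25 had the same sign in all of them. The mean ratios of 51 further probes correlated with those of the brightest probes at r = 0.68 across probes, and 39 had the same sign. Among the 17 further probes with a mean level over 9, the correlation was 0.83 and 15 had the same sign. Probes of a gene share their libraries and arrays, so they do not add replicates.

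**Figure D4:**
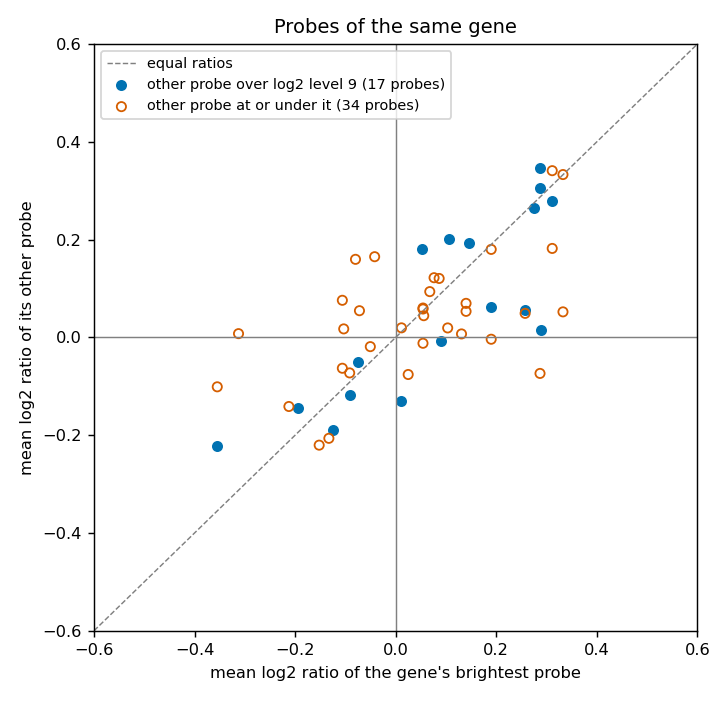
Mean log2 ratio of each further probe (vertical axis) against that of the brightest probe of the same gene (horizontal axis), over 51 probes. Filled points are probes with a mean level over 9, of which 15 of 17 lie on the same side of 0 as the brightest probe, and open points are dimmer probes.

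Of 6 mitoribosomal proteins with other symbols, DAP3, PTCD3, CHCHD1, AURKAIP1, GADD45GIP1 and MRPL58 (ICT1 in the annotation), all were tested and the median was 0.02. PTCD3, a pentatricopeptide repeat protein of the small subunit, was at -0.39, -0.56, 0.06 and -0.47, a mean of -0.34 ± 0.11 with an adjusted p of 0.36. DAP3, a GTP-binding small subunit protein, was at -0.13 ± 0.10, and the other 4 genes had means from 0.01 to 0.12.

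Translation factors of the mitoribosome had mostly negative ratios, though none passed over the replicates. Of 12 translation factors 10 were tested, 1 of them above 0, with a median of -0.21 that was -0.12, -0.31, -0.08 and -0.47 in replicates 1 to 4. MTIF2, the initiation factor that places the initiator tRNA, was at -0.72, -0.79, -0.01 and -0.50, a mean of -0.50 ± 0.14 with an adjusted p of 0.316. GFM2, a ribosome recycling factor, was at -0.48 ± 0.15, and MTFMT, which formylates the initiator tRNA, was below 0 in every replicate at -0.26 ± 0.06. The elongation factor TUFM was the gene above 0, at 0.06, 0.34, -0.32 and 0.86, while TSFM, its exchange factor, was at -0.26, -0.85, 0.27 and -0.89. MTIF3, another initiation factor, was at -0.43 ± 0.21 and negative in all replicates but replicate 3.

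Of 26 assembly factors 17 were tested, 4 above 0, with a median of -0.08. ERAL1, a chaperone of the small subunit rRNA, was lower in every replicate at -0.29, -0.37, -0.89 and -0.35, with a mean of -0.47 ± 0.12, an adjusted p of 0.288 and 0.032 in the blocked fit, where it was the gene of this list that passed. Without the 3rd pair the adjusted p of ERAL1 was 0.0203, and 4 of the 17 genes passed, all lower. The others were NOA1A (0.0138), FASTKD2 (0.0363) and NGRN (0.049). Over all 13592 named genes, 714 higher and 765 lower genes passed in that fit. Of the translation factors, MTIF2 (0.0112), MTIF3 (0.0106) and TSFM (0.0206) passed there, all lower. PTCD3 (0.0102), RARS2 (0.00662), TRMT10C (0.025) and MYC (0.0122) also passed lower. Of the oxidative phosphorylation subunits, 7 passed higher and 1 lower. NGRN, needed for the large subunit rRNA, was at -0.34 ± 0.07, MTERF3 at -0.21 ± 0.04 and FASTKD2, also a factor of the large subunit rRNA, at -0.36 ± 0.11. PNPT1, a mitochondrial exoribonuclease, was at 0.22 ± 0.07. Of this list, 1 gene was higher (5.88%) and 5 were lower (29.4%) at an unadjusted p under 0.05, against 7.92% and 8.08% of all named genes.

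Of 19 mitochondrial tRNA synthetases 14 were tested, 3 above 0, with a median of -0.08. MARS2, for methionine, was at -0.18, -0.47, -0.55 and -0.19, a mean of -0.35 ± 0.08 with an adjusted p of 0.285. RARS2, for arginine, was at -0.73, -1.11, 0.17 and -0.58. Among 13 tested genes of mitochondrial transcription and RNA handling the median was 0.02, with SLIRP, an RNA-binding partner of LRPPRC, at 0.27 ± 0.08 and the DNA-binding protein SSBP1 at -0.22 ± 0.06, each of the same sign in all replicates. OXA1L, the insertase that receives the products of the mitoribosome, was at -0.10, -0.57, -0.25 and -0.25, within a list of insertion and quality control whose median over 12 genes was 0.09.

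Of 9 regulators of mitochondrial genes, 8 were tested, with a median of -0.0046, and none had an unadjusted p under 0.05. MYC, a transcription factor that drives ribosome genes, was at -0.43, -0.71, 0.38 and -1.10, so it was lower in replicates 1, 2 and 4 and higher in replicate 3. PPRC1, a coactivator of the PGC-1 family, was at -0.23 ± 0.10 and NRF1 at 0.14 ± 0.20.

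Nuclear-encoded partners of the mitoribosome's products, and the ribosome of the cytosol, had medians just above 0. Over 83 tested nuclear subunits of oxidative phosphorylation, the median was 0.02 with 50 above 0, and it was 0.03, 0.01, 0.02 and 0.09 in replicates 1 to 4. Over 68 cytosolic ribosomal proteins it was 0.00892, with an interquartile range of 0.07 against 0.25 for the mitoribosomal members. The cytosolic list was also much brighter, with a median mean level of 14.75 against 10.53, and its median SE was 0.06 against 0.10. The part of brightness in the difference of spread was not tested. The lists were not tested against each other.

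**Figure D5:**
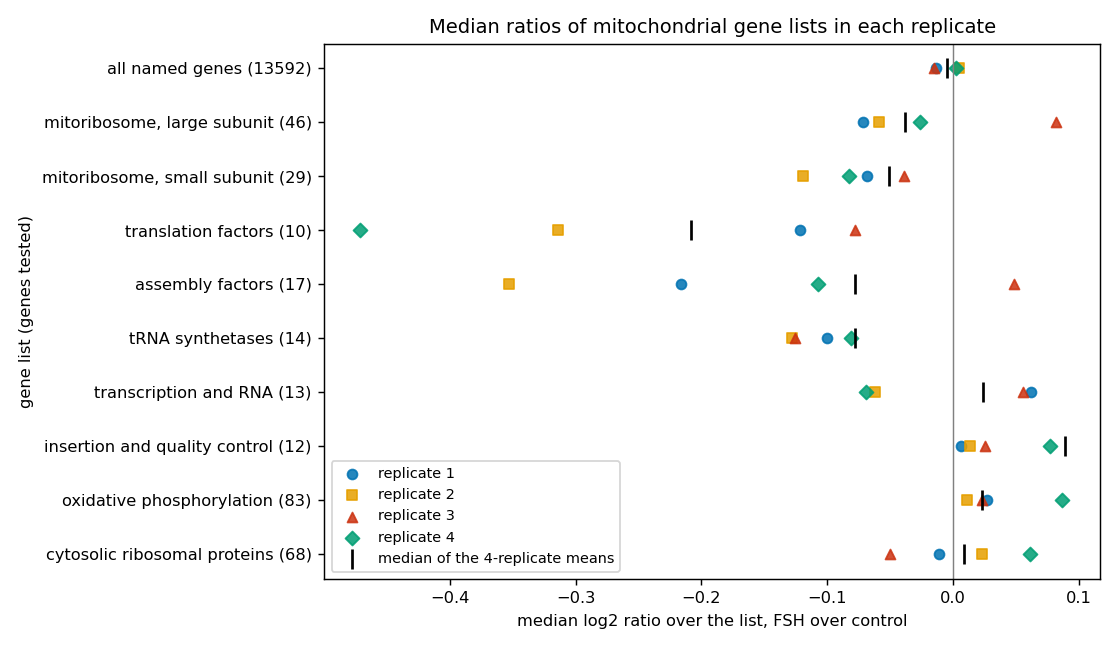
Median log2 ratio of FSH over control (horizontal axis) of gene lists in each replicate (coloured symbols) and over the mean of the replicates (black marks), with the number of genes tested in brackets. The small subunit, translation factors and tRNA synthetases lie below 0 in every replicate. Oxidative phosphorylation and the insertion and quality control list lie above 0 in every replicate.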

How the data were processed

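RNA of cultured granulosa cells was measured on 8 two-colour arrays, 4 per dye orientation. Per the file headers, the deposited scanner tables give each spot's raw intensity and local background at both wavelengths, and the authors had applied no normalisation to these columns. The sources do not name the software of the scanner. The series-wide ratio table was not used here.

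Mean intensities were corrected by the median local background (normexp, offset 50) and normalised by loess within each array, with control and ignored spots at weight 0 (limma 3.58.1, R 4.3.3). All ratios are FSH over control, and averaging same-numbered arrays gave 4 replicates. Pairs follow the labels' replicate numbers: same-numbered arrays correlated at 0.357 to 0.610 across probes, those of different number and opposite dye at -0.399 to 0.285, and those of different number and the same dye at 0.146 to 0.728. The series design states 4 control and 4 treated biological replicates, while the protocol speaks of 8. Tested probes lay above the 95th percentile of 153 negative controls in 1 or both channels on 4 or more arrays. Mean ratios were tested against 0 two-sided, by lmFit and eBayes; the Benjamini-Hochberg adjustment covered every tested probe, with 0.05 as the threshold. The scripts were tested on simulated data. Levels were scaled by Aquantile. The blocked fit used duplicateCorrelation, at 0.722. The number of arrays limits the precision.

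The members, the lists and the rule for named genes were chosen with earlier results of these data known. The rule takes probes past the threshold, the 8 highest and 8 lowest means, the 6 lowest p in each direction, a panel by role, and members called in the blocked fit. Of the annotated probes, 21790 have 1 symbol, and 22004 probes have none here. The annotation names no genome build, and positions are not given. Python 3.11.15, pandas and matplotlib drew the figures.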

Additional observations from a re-analysis of the deposited data

Results flagged for a closer look

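In 5 of the 75 members, 1 replicate lay far from the other 3, by a gap that chance gives in about 1 in 20 groups of 4. MRPL45 stood at 1.04 in replicate 3, with the others between 0.06 and 0.14, and a second probe of the gene was also high there. MRPL33, a large subunit protein with a bacterial counterpart, was at -0.41 in replicate 3 and between 0.30 and 0.36 in the others. The mean of MRPL33 was 0.14, and 0.33 without replicate 3. In the blocked fit without the 3rd pair MRPL33 had an adjusted p of 0.0298, against 0.724 with it. MRPL39 was at 0.34 in replicate 3 and between 0.12 and 0.16 in the others, so all 4 had the same sign. MRPL28 was at 0.42 in replicate 4, with the others between -0.11 and -0.02. MRPS36 was at -0.34 in replicate 4, with the others between 0.21 and 0.29. MRPL28 and MRPL33 are named after their values were seen.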

How the results depend on the processing

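The count of called probes was 0 over all tested probes and 0 over the members without background subtraction, with median centring, with no or a strict filter on dim probes, with an intensity trend and without each replicate in turn. It changed in the paired fit with the replicate block and a dye term, to 1275 probes and 5 of the members. With the block but without the 3rd pair, a setting chosen after the data were seen, it was 2629 and 10. With FSH in Cy5 only it was 1983 and 5, and with FSH in Cy3 only 471 and 2. The block changed no median. The members' median lay between -0.06 and -0.000734 in every setting run. The large minus small difference lay between 0.01 and 0.06, except with FSH in Cy3 only, where it was 0.10. Over 588 values of 42 named members in 14 settings, 28 changed sign, in 14 genes. Of these, 6 moved by at least the SD between replicates: with FSH in Cy5 only MRPL24 was at 0.0227, MRPS18A at -0.18, MRPS27 at 0.16, MRPS28 at 0.12 and MRPS7 at -0.83, and with FSH in Cy3 only MRPL4 was at 0.17. The cause was not tested, beyond that a single orientation does not cancel a dye effect. The median probe was only 1.27 to 1.38 times as bright as the negative controls, which compresses ratios of dim probes.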
